A study of Homo sapiens with 6 samples.

Results

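The SOCS, PIM and JAK-STAT genes described here are 10 transcripts of cytokine signalling, chosen by gene name from a deposited table of read counts that holds 39293 genes when each name is counted once. They are the feedback inhibitors SOCS1, SOCS2, SOCS3 and CISH, the serine/threonine kinases PIM1, PIM2 and PIM3, the transcription factors STAT3 and STAT5A, and the tyrosine kinase JAK1. Poly(A) RNA was sequenced from SW480, an established epithelial line of human colorectal carcinoma. The DHA group was 3 wells treated for 4 h with 20 µg/mL dihydroartemisinin, to which some artemisinin drugs are converted in the body. The control group was 3 wells given 0.1% DMSO as solvent. All libraries come from 1 cell line at 1 dose and 1 time, and the sources used here do not state the DMSO content of the DHA wells. No label says that the wells were separate cultures, so the p-values rest on a well-to-well spread that may be technical.

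In the JAK-STAT pathway a cytokine brings its receptor chains together, and the JAK kinases bound to them phosphorylate STAT proteins, which pair, enter the nucleus and bind DNA at sites of the form TTCNNNGAA. SOCS genes and CISH are among the genes that STATs switch on, and their proteins close a feedback loop: they bind phosphorylated tyrosines through an SH2 domain, and their SOCS box recruits a ubiquitin ligase of elongins B and C and a cullin. PIM kinases are active as soon as they are made, so that their amount is set largely by transcription and by the stability of the RNA and protein. In colonic epithelium STAT3 carries signals of the interleukin-6 family and of interleukin-22, and it is often active in colorectal tumours.

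The promoters of a member with several matches to the STAT motif and of a pair of members that rose are shown because they differ in the motif the pathway is known for. The windows cover the 250 bases upstream of the RefSeq start (GRCh38.p14), 5′ to 3′ on the strand of the gene, in lower case with matches to TTCNNNGAA in capitals. They lie at chr3:50611775-50612024 (minus strand) for CISH, chr16:11256205-11256454 (minus strand) for SOCS1 and chr6:37169902-37170151 (plus strand) for PIM1.
CISH: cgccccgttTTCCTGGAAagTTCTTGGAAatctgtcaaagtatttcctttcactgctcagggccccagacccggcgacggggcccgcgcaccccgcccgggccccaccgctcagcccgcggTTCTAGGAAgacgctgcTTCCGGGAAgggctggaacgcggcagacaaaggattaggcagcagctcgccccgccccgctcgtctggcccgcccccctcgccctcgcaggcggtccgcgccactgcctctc
SOCS1: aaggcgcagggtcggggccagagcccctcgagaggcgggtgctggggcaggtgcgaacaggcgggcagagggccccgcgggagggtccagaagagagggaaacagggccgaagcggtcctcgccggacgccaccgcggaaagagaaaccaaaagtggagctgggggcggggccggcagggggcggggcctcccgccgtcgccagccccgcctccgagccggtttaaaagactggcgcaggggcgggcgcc
PIM1: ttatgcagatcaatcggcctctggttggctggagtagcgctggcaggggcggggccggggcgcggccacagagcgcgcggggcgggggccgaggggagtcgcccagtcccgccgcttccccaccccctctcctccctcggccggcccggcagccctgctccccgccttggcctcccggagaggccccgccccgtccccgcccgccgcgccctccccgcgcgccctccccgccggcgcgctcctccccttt

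CISH held 4 matches, which started 241, 230, 129 and 112 bases before the RefSeq start, and the SOCS1 and PIM1 windows held none. Of 35116 such windows in the RefSeq table used, 6.57% held at least 1 match and 5 held 4 or more. Of the 8 members whose nearest window started within 300 bases of the deposited gene start, CISH was the 1 with a match. The windows without a match included those of STAT3, which fell, and of PIM2 and JAK1, which did not pass. Absence of a match therefore does not set the members that rose apart. No window among the 8 held the AP-1 motif TGANTCA, the CRE motif TGACGTCA, a heat shock element or an SRF CArG box, all read on both strands, motifs found in 6.57%, 1.65%, 0.441% and 1.16% of all windows. The windows of SOCS3 lay farther from its deposited start, and SOCS2 was not matched. A match is a description of these letters, and its absence says nothing about sites elsewhere.

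Each value below is given in counts per 1000000 counts of the library (CPM), followed by the log2 fold change of DHA over control from edgeR. The p-values come from edgeR's quasi-likelihood test, adjusted by Benjamini-Hochberg over 15811 genes. The standard error (SE) was computed as the absolute log2 fold change divided by the square root of that test's F statistic. The 95% intervals use this SE and a t quantile. The threshold for a call was an adjusted p of 0.05. Library totals lay between 14291726 and 16653074 counts for DHA and between 15807037 and 18938456 counts for control, so that 3 counts correspond to 0.158 to 0.210 CPM. The DHA library of replicate 2 stood apart from the others of its group, with a chi-square per gene of 12.9 and 13.1 against replicates 1 and 3, against 1.65 between those, and 3.10 to 8.03 among control libraries. Mitochondrial transcripts made up 11.6% to 13.3% of DHA libraries and 7.84% to 9.30% of control libraries. The epithelial markers KRT8, KRT18, KRT19 and EPCAM were abundant, with a summed level of all 9 listed markers of 5476 to 5622 CPM in DHA and 4241 to 4635 CPM in control, while VIL1, KRT20 and CEACAM5 were at or under 56 counts in every library. Of 6 leukocyte markers PTPRC was at 0 in every library, and the summed level was 3.54 to 5.74 CPM in DHA and 0.443 to 1.16 CPM in control, mostly CD14. Of 5 fibroblast markers DCN and COL1A2 were at 0 throughout, with a summed level of 70.9 to 93.6 CPM in DHA and 21.6 to 29.7 CPM in control, nearly all of it COL1A1, and 3 endothelial markers summed to 0.810 to 1.86 CPM in DHA and 0.959 to 1.96 CPM in control. In bulk RNA fewer cells of a type and less RNA per cell cannot be told apart.

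After 4 h of DHA, SW480 cells held much more SOCS1 and SOCS3 transcript, moderately more PIM1 and SOCS2, and less STAT3. PIM3 was also higher with TMM scaling, a direction that turned with an offset for GC content and length. SOCS1 was 11.4-fold and SOCS3 5.53-fold higher than in control, and STAT3 was at 0.743 of the control level. Of the 9 members tested, 5 rose and 1 fell, where 59.6% of all 15811 genes passed, 29.6% being higher and 30.1% lower. With the GC and length offset 4 members were higher and 3 lower, PIM3 and PIM2 being lower beside STAT3. Over all genes 4674 rose and 4757 fell, a split that was 3852 to 5612 with library totals alone and 3400 to 5469 with limma on log2(CPM + 1). CISH, PIM2 and JAK1 did not pass, and STAT5A had too few counts to be tested. The median log2 fold change of the 9 tested members was 0.51, beside 0.011 over all genes tested. At least 2-fold rises were seen in 2 of the 9 and at least 2-fold falls in 0, against 10.7% and 4.96% of all genes. The CPM of the groups did not overlap for 5 of the 9 in the higher direction, against 27.0% of all genes, and for 2 in the lower direction, against 38.4% (65.5% in either direction).

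**Figure D1:**
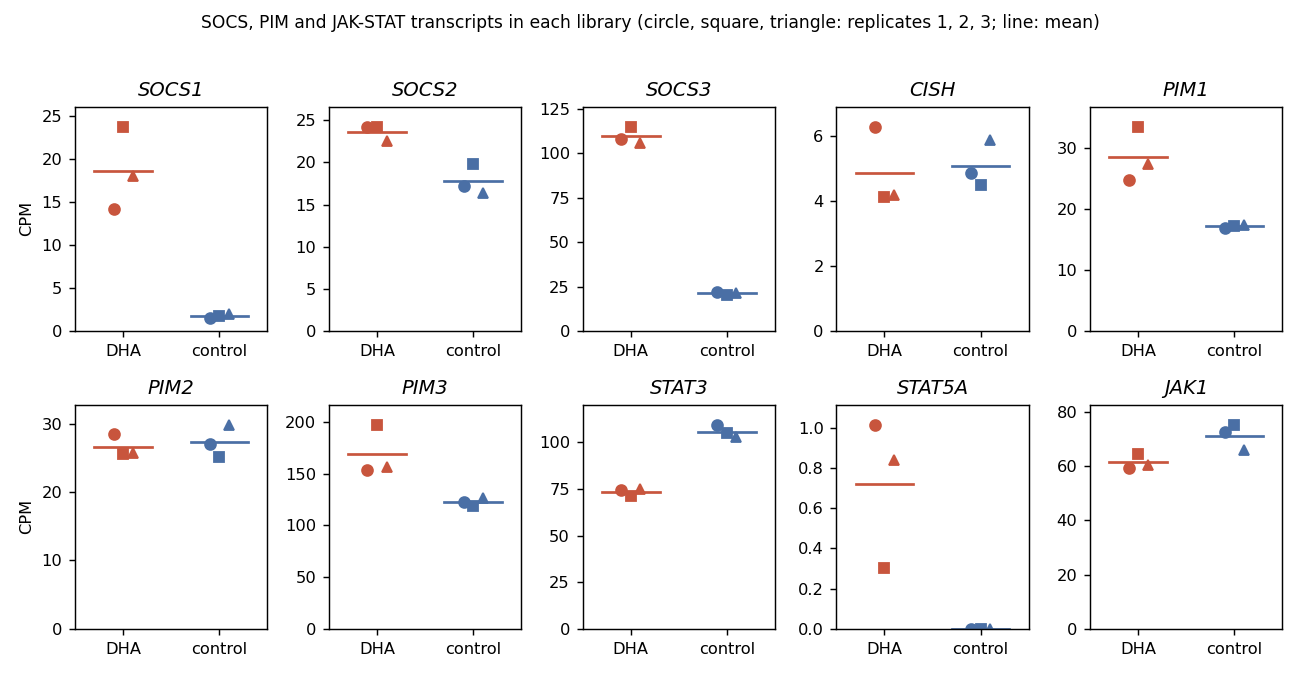
CPM (vertical axes, each from 0) of the 10 members in the 3 DHA and 3 control libraries, with a marker per replicate and a line at the group mean. SOCS1 and SOCS3 lie far above control in every DHA library, STAT3 lies below it, and the groups overlap for CISH and PIM2.

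SOCS1 (ENSG00000185338, GRCh38 chromosome 16, 11254405 to 11256179, minus strand) blocks the catalytic activity of JAK1, JAK2 and TYK2 and limits interferon signalling. It had 14.2, 23.7 and 18.0 CPM in the DHA libraries of replicates 1, 2 and 3, against 1.48, 1.77 and 1.98 CPM in control libraries, or 210, 395 and 257 counts in DHA against 28, 28 and 33 counts in control. The lowest DHA library was above every control library, and the DHA libraries were spread more widely than the controls. Its log2 fold change was 3.52 ± 0.21 (SE), with an adjusted p of 1.17e-07 by edgeR. Leaving out the DHA library of replicate 2 gave 3.34, and it was 2.67 with an offset for GC content and length, and the call held in all 14 alternatives. RMI2, which GENCODE 29 places over SOCS1 on the opposite strand without shared exon bases, had 106, 196 and 77 counts in DHA and 153, 132 and 122 counts in control.

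SOCS3 (ENSG00000184557, chromosome 17, 78356778 to 78360077, minus strand) binds the shared interleukin-6 receptor chain gp130 and is the best known brake on STAT3. It had 108, 115 and 106 CPM in DHA libraries, against 22.0, 20.2 and 21.2 CPM in control libraries. Both groups were tight, with standard deviations of 4.65 CPM in DHA and 0.889 CPM in control (n = 3 each). Its log2 fold change was 2.47 ± 0.07, with an adjusted p of 4.37e-10 by edgeR, and it lay between 2.42 and 2.50 when each library was left out in turn. With the GC and length offset it was 1.96.

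SOCS2 (ENSG00000120833, chromosome 12, 93569814 to 93583487, plus strand), a feedback inhibitor of growth hormone signalling, had 24.2, 24.1 and 22.5 CPM in DHA libraries, against 17.2, 19.8 and 16.4 CPM in control libraries. The groups did not overlap, and the difference was far smaller than for SOCS1 and SOCS3. The log2 fold change of SOCS2 was 0.51 ± 0.10, with an adjusted p of 0.000901 by edgeR, and it was 0.67 with the GC and length offset. SOCS2-AS1, whose exons overlap those of SOCS2 on the opposite strand, had 37, 21 and 29 counts in DHA and 14, 7 and 11 counts in control. No source used here states whether counting used strand, so reads of the pair cannot be told apart.

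CISH (ENSG00000114737, chromosome 3, 50606490 to 50611831, minus strand), the first SOCS family gene described and a classic STAT5 target, had 6.28, 4.14 and 4.20 CPM in DHA libraries, against 4.86, 4.49 and 5.87 CPM in control libraries. The groups overlapped throughout their range. Its log2 fold change was 0.036 ± 0.20, with a 95% interval of -0.41 to 0.48 and an adjusted p of 0.891 by edgeR. At 60 to 98 counts per library, changes in either direction within that interval remain compatible with the data. The exons of MAPKAPK3 overlap those of CISH on the opposite strand, and MAPKAPK3 had 1388, 1505 and 1455 counts in DHA and 2429, 1930 and 2126 counts in control. Because the use of strand in counting is not stated, reads in the overlap cannot be told apart here either.

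PIM1 (ENSG00000137193, chromosome 6, 37170203 to 37175426, plus strand) promotes survival and growth downstream of cytokines. It had 24.6, 33.3 and 27.4 CPM in DHA libraries, against 16.9, 17.1 and 17.3 CPM in control libraries. The controls were nearly identical, and every DHA library lay above them. PIM1 had a log2 fold change of 0.83 ± 0.11, with an adjusted p of 4.76e-05 by edgeR. Leaving out DHA replicate 2 gave 0.74, and it was 0.45 with the GC and length offset, at an adjusted p of 0.00263.

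PIM3 (ENSG00000198355, chromosome 22, 49960513 to 49964080, plus strand) was the most abundant PIM transcript. It had 153, 197 and 156 CPM in DHA libraries, against 123, 119 and 126 CPM in control libraries, and the DHA library of replicate 2 was the highest. Its log2 fold change was 0.55 ± 0.09, with an adjusted p of 0.000204 by edgeR. Without that library it was 0.47 and still passed. With the GC and length offset the direction turned, to -0.16 at an adjusted p of 0.0398.

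PIM2 (ENSG00000102096, chromosome X, 48913182 to 48919024, minus strand), a kinase best known in blood cells, had 28.4, 25.6 and 25.7 CPM in DHA libraries, against 27.0, 25.1 and 29.8 CPM in control libraries. The groups overlapped. For PIM2 the log2 fold change was 0.056 ± 0.10, with a 95% interval of -0.15 to 0.27 and an adjusted p of 0.635 by edgeR. The GC and length offset moved it to -0.32, at an adjusted p of 0.00969.

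Fold changes over all genes rose with the GC content of the longest GENCODE 29 transcript, and the members are set beside that trend. With the 15766 tested genes that have a GC value in 5 bins of equal size, from low to high GC content, the median log2 fold change was -0.31, -0.16, -0.014, 0.14 and 0.40. PIM3, at 67.1% GC, falls in the highest bin, and its 0.55 stands beside the median of 0.40 there. SOCS1, at 69.1%, and SOCS3, at 60.0%, belong to the same bin, with 3.52 and 2.47. SOCS2, at 47.3%, and STAT3, at 50.4%, belong to the middle bin, with 0.51 and -0.43. Within the DHA group, replicate 2 minus the mean of the other DHA libraries, in log2(CPM + 1), also rose over these bins. The medians of this difference were -0.029, -0.0027, 0.032, 0.084 and 0.15. The share of GC content in these changes was not tested.

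**Figure D2:**
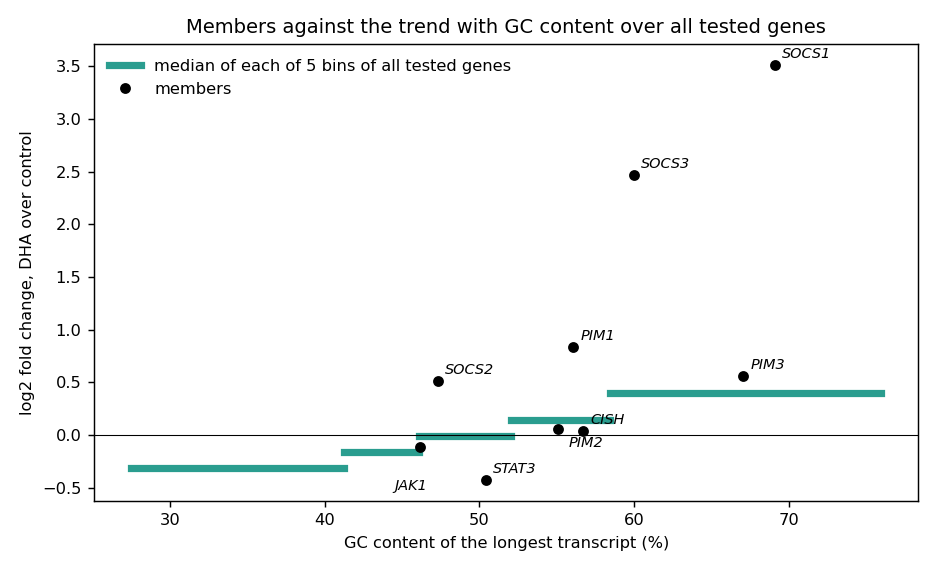
Log2 fold change of DHA over control (vertical) against the GC content of the longest transcript in percent (horizontal) for the 9 tested members (points), with bars for the median of each of 5 bins of all tested genes. The medians run from -0.31 to 0.40, SOCS1 and SOCS3 stand far above the bar at their GC content, and PIM3 stands near it.

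**Figure D3:**
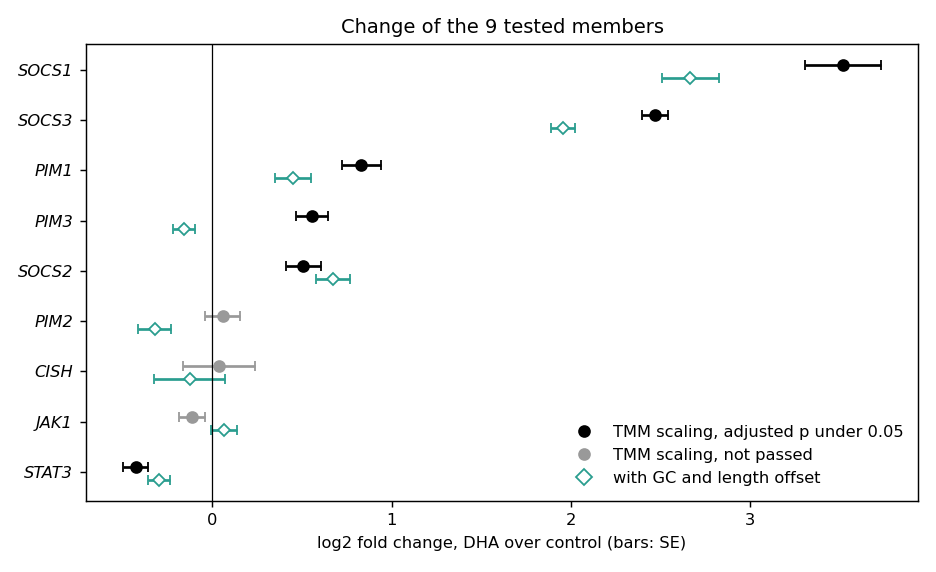
Log2 fold change of DHA over control with SE (horizontal) for the 9 tested members, with TMM scaling (filled, black where passed) and with an offset for GC content and length (open). SOCS1, SOCS3, PIM1 and SOCS2 stay above 0 and STAT3 below it with both. PIM3, PIM2, CISH and JAK1 change sign.

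STAT3 (ENSG00000168610, chromosome 17, 42313324 to 42388568, minus strand), the transcription factor of the interleukin-6 family, fell. It had 74.2, 71.2 and 74.7 CPM in DHA libraries, against 109, 105 and 103 CPM in control libraries. Both groups were tight and well apart. STAT3 had a log2 fold change of -0.43 ± 0.07, with an adjusted p of 0.000189 by edgeR, and it lay between -0.53 and -0.30 over the 14 alternatives, all of which kept the call.

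JAK1 (ENSG00000162434, chromosome 1, 64833229 to 64966504, minus strand), a kinase used by interferon and gp130 receptors, had 59.4, 64.5 and 60.5 CPM in DHA libraries, against 72.5, 75.2 and 65.8 CPM in control libraries. In CPM every DHA library was below every control library, by a small margin. With TMM scaling its log2 fold change was -0.11 ± 0.07, with a 95% interval of -0.27 to 0.047 and an adjusted p of 0.202 by edgeR. Scaled by library totals alone it passed, at -0.21 and an adjusted p of 0.0302. RAVER2, whose exons overlap those of JAK1 on the opposite strand, had 705, 794 and 746 counts in DHA and 1363, 1306 and 1257 counts in control. Reads in that overlap cannot be told apart, as the use of strand in counting is not stated.

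STAT5A (ENSG00000126561, chromosome 17, 42287547 to 42311943, plus strand), a mediator of prolactin, growth hormone and interleukin-2 signals, was barely detected. It had 15, 5 and 12 counts in DHA libraries, or 1.01, 0.300 and 0.840 CPM, against 0 counts in each control library. With 3 counts summed over the control libraries taken as the floor, or 0.0583 CPM, the pooled DHA level of 0.699 CPM was 12.0 times that floor. This ratio allows for no counting error in DHA, where replicate 2 had 5 counts, so it is not a lower bound. STAT5A did not meet the low-count filter, so it was not tested here. The authors' deposited table lists it with a log2 fold change of 6.15 and an adjusted p of 0.000111, a fitted value that depends on how zero counts are handled. The same authors' deposited table of 2969 genes holds 2 other members, SOCS1 at 3.51 and SOCS3 at 2.46. STAT5A is nearly identical over long stretches to its neighbour STAT5B, so the division of reads between the pair is uncertain. STAT5B had 230, 251 and 174 counts in DHA and 182, 165 and 132 counts in control, with a log2 fold change of 0.71 ± 0.14 and an adjusted p of 0.000883 by edgeR.

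Levels of different genes were compared as CPM per kilobase of exon, using the union of all GENCODE 29 exons, which understates genes with long rarely used exons. In DHA libraries PIM3 was highest at 68.5 ± 9.96 (SD, n = 3), followed by SOCS3 at 40.1 ± 1.70. SOCS1, JAK1, PIM2, PIM1 and STAT3 followed between 10.4 ± 2.67 and 8.33 ± 0.212, and neighbours in that order differed by less than the larger of their standard deviations. SOCS2 at 3.48 ± 0.138, CISH at 0.953 ± 0.238 and STAT5A at 0.125 ± 0.0646 came last. In control libraries the order was PIM3 at 49.8 ± 1.49, STAT3 at 12.0 ± 0.372, JAK1 at 11.3 ± 0.767, PIM2 at 9.89 ± 0.853, SOCS3 at 7.74 ± 0.325, PIM1 at 5.74 ± 0.0629 and SOCS2 at 2.62 ± 0.265. CISH at 0.993 ± 0.140 and SOCS1 at 0.970 ± 0.140 differed by less than their spread in control, and STAT3 and JAK1 by less than theirs.

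The make-up of the families, in CPM per kilobase with no GC offset, differed between the groups. Among the 8 genes of the SOCS family, per kilobase, SOCS3 made up 46.7% ± 1.31 in DHA and 14.2% ± 0.790 in control (SD, n = 3), and SOCS1 made up 12.0% ± 2.36 in DHA and 1.78% ± 0.271 in control. SOCS4 to SOCS7 together were the larger part in control, with SOCS7 at 7.76% ± 0.189 in DHA and 24.2% ± 1.04 in control and SOCS6 at 15.2% ± 0.214 in DHA and 23.7% ± 0.697 in control. The summed level of the family was 86.0 ± 5.48 CPM per kilobase in DHA and 54.5 ± 1.02 in control. PIM3 held 78.0% ± 1.42 of PIM transcript in DHA and 76.1% ± 0.502 in control. Of the JAK family TYK2 made up 59.2% ± 1.17 in DHA and 49.5% ± 1.44 in control, and JAK1 made up 31.2% ± 1.20 in DHA and 40.8% ± 1.65 in control. TYK2, at 61.3% GC, belongs to the highest GC bin, and its 0.53 stands beside the median of 0.40 there. JAK1, at 46.2%, belongs to the middle bin. Its log2 fold change was -0.11 and not called with TMM scaling, and 0.065 with the GC and length offset. These shares are descriptions, with no test.

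**Figure D4:**
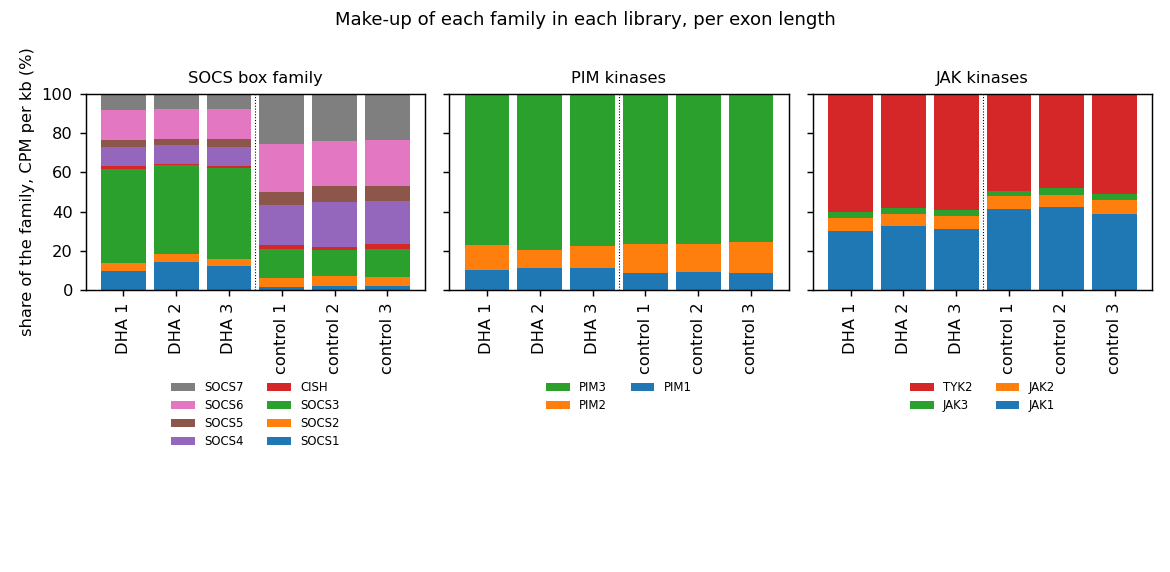
Share of each gene in its family (vertical, percent of summed CPM per kilobase of exon) in each of the 3 DHA and 3 control libraries. SOCS3 and SOCS1 take a larger part of the SOCS family in every DHA library, and JAK1 takes a smaller part of the JAK family. The shares carry no GC offset.

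The other SOCS genes did not follow SOCS1 and SOCS3. Of 4, 0 rose and 3 fell, with a median of -0.36, where 29.6% of all genes rose and 30.1% fell. SOCS4, SOCS5 and SOCS6, at 35.3%, 37.5% and 38.0% GC, belong to the lowest GC bin, where the median over all genes was -0.31. SOCS7 had 57.5 ± 3.47 CPM in DHA and 113.7 ± 5.44 CPM in control (SD, n = 3), a log2 fold change of -0.89 ± 0.07 with an adjusted p of 1.04e-06 by edgeR. SOCS4 fell by 0.44 ± 0.07 and SOCS5 fell by 0.29 ± 0.10 on the log2 scale, and with the GC and length offset these were 0.0074 and 0.13, neither passed. SOCS5 lost its call in 5 of 14 alternatives, 4 of them fits without DHA replicate 1, DHA replicate 2, control replicate 2 or control replicate 3, and in those 4 fits 2 of the other SOCS genes fell. SOCS6 was at 0.11 ± 0.07 and did not pass, and with the offset it passed at 0.48. Of 5 partners of the SOCS box in the ubiquitin ligase, 3 rose and 1 fell, where 29.6% of all genes rose and 30.1% fell. The cullin CUL5 fell by 0.64 ± 0.08, while elongin C (ELOC) rose by 0.48 ± 0.10, elongin B (ELOB) by 0.48 ± 0.12 and the RING protein RNF7 by 0.47 ± 0.17. With the GC and length offset ELOB turned to -0.26, and RNF7 overlapped between groups and lost its call in 7 of 14 alternatives, at 0.21 without DHA replicate 2.

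TYK2, a JAK of type I interferon receptors, rose by 0.53 ± 0.06, at 124.9 ± 1.95 CPM in DHA and 92.5 ± 1.04 CPM in control. JAK2 at 0.25 ± 0.11 and JAK3 at 0.28 ± 0.15 did not pass. STAT2, a factor of the type I interferon response, rose by 0.76 ± 0.08, STAT5B by 0.71 ± 0.14 and STAT6, the interleukin-4 and interleukin-13 factor, by 0.44 ± 0.07. STAT4 was at -0.11 ± 0.26 and did not pass. Values are given for single STAT genes, with no count over the family.

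Of 11 tested inhibitors of the pathway outside the SOCS family, 8 fell and 1 rose, with a median of -0.39, where 30.1% of all genes fell and 29.6% rose. With the GC and length offset 6 fell and 2 rose. The ubiquitin ligase CBL had 57.6 ± 3.40 CPM in DHA and 168.9 ± 12.1 CPM in control, a log2 fold change of -1.46 ± 0.08 with an adjusted p of 3.96e-08 by edgeR. The phosphatase PTPN11 (SHP2), which also relays growth factor signals, had 198 ± 3.03 CPM in DHA and 438 ± 18.7 CPM in control. The SUMO ligases PIAS2 and PIAS4, of a family that restrains STATs, fell by 0.61 ± 0.09 and 0.57 ± 0.09, and the phosphatase PTPN6 (SHP1) was the 1 that rose, by 0.36 ± 0.07. The calls of PIAS2 and PTPN6 were lost with the GC and length offset, at -0.11 for PIAS2 and 0.12 for PTPN6.

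Of 38 cytokine receptor chains 26 were tested, of which 7 rose and 9 fell, with a median of -0.0037. These counts are near the share over all genes, of which 29.6% rose and 30.1% fell. With the GC and length offset 4 receptor chains rose and 7 fell. Some genes near the low-count filter were tested only because 1 group was high, so counts over tested genes are descriptions. The leukemia inhibitory factor receptor LIFR had 12.5 ± 1.69 CPM in DHA and 31.6 ± 3.54 CPM in control, the interferon receptor chain IFNAR1 had 24.3 ± 2.02 CPM in DHA and 55.9 ± 3.51 CPM in control, and IL13RA1 had 26.0 ± 2.62 CPM in DHA and 53.5 ± 1.15 CPM in control. Their log2 fold changes were -1.23 ± 0.12, -1.11 ± 0.09 and -0.95 ± 0.09. The interleukin-12 receptor chain IL12RB2 rose, with 31, 25 and 17 counts in DHA against 6, 2 and 4 counts in control.

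Several cytokine ligand transcripts were higher in DHA, most of them at low levels. Of 28 ligands 11 were tested, of which 7 rose and 0 fell, where 29.6% of all genes rose and 30.1% fell. Some of them, IL13, IFNE and CSF3 among them, met the low-count filter only because DHA counts were high. The count is therefore a description. CLCF1, a gp130 cytokine, had 28.0 ± 0.711 CPM in DHA and 7.87 ± 2.05 CPM in control, a log2 fold change of 1.93 ± 0.15 with an adjusted p of 8.08e-07 by edgeR. IL13 had 56, 58 and 55 counts in DHA against 4, 6 and 2 counts in control, the epithelial interferon IFNE had 31, 37 and 35 counts in DHA against 7, 12 and 5 counts in control, and CSF3 had 15, 14 and 16 counts in DHA against 0, 0 and 2 counts in control. LIF and IL6, named here after their values were seen, differed in level. LIF had 910, 1187 and 919 counts in DHA against 939, 835 and 770 counts in control and rose by 0.50 ± 0.08 on the log2 scale. IL6 had 2, 1 and 0 counts in DHA against 0 counts in each control library.

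Textbook STAT3 and STAT5 targets outside the members are genes that other pathways also induce. Of 12 tested, 8 rose and 3 fell, with a median of 1.36, where 29.6% of all genes rose and 30.1% fell. JUNB, an AP-1 subunit, had 635.7 ± 29.8 CPM in DHA and 93.4 ± 8.59 CPM in control. The transcriptional repressor BCL6 had 85.9 ± 7.43 CPM in DHA and 23.0 ± 3.45 CPM in control, and the survival gene MCL1 had 645.8 ± 5.26 CPM in DHA and 256.3 ± 5.74 CPM in control. FOS had 1465 ± 125 CPM in DHA and 9.81 ± 2.87 CPM in control. Cyclin D1 (CCND1) fell by 0.74 ± 0.07, HIF1A fell by 0.67 ± 0.08, and MYC fell by 0.24 ± 0.09, a call lost in 5 of 14 alternatives, at -0.12 without DHA replicate 2.

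Of 10 PIM substrates, 4 rose and 4 fell, where 29.6% of all genes rose and 30.1% fell. Leaving out each library gave 3 to 4 higher and 3 to 4 lower substrates. The cell cycle inhibitor CDKN1A had 715.4 ± 8.47 CPM in DHA and 292.4 ± 22.6 CPM in control, the chemokine receptor CXCR4 had 7.92 ± 0.895 CPM in DHA and 0.796 ± 0.102 CPM in control, the mTORC1 component AKT1S1 rose by 0.50 ± 0.09, and the translation factor EIF4B fell by 0.59 ± 0.07.

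**Figure D5:**
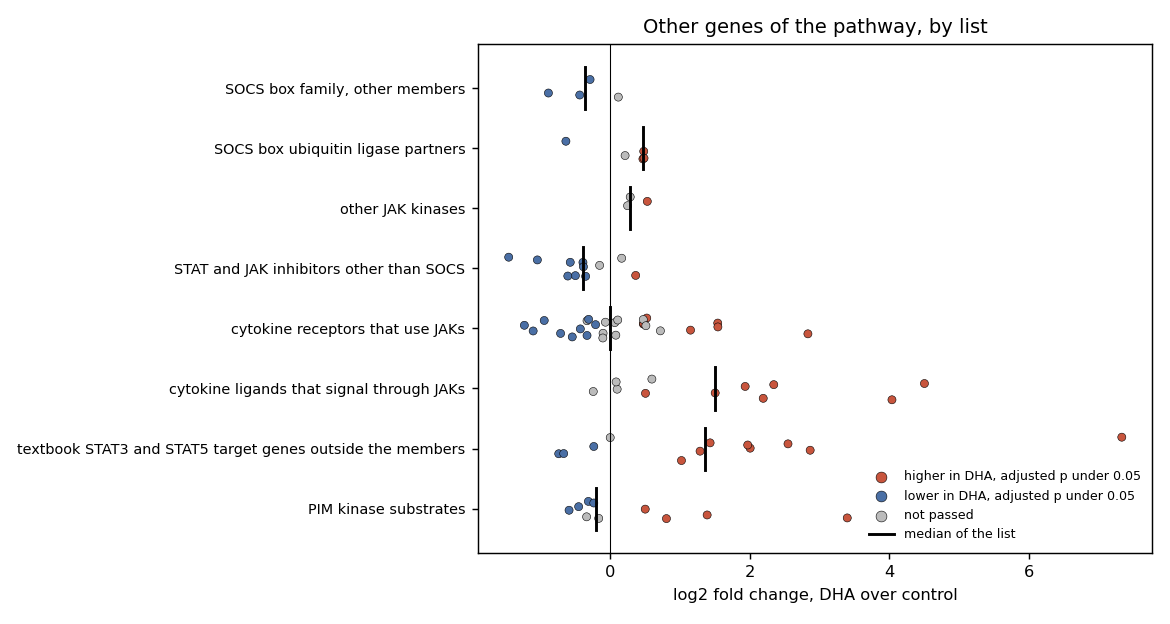
Log2 fold change of DHA over control (horizontal) for the tested genes of 8 lists of pathway genes (rows), coloured by call, with a bar at the median of each list. Inhibitors other than SOCS lie mostly below 0, and ligands and STAT3 and STAT5 targets mostly above it. Some of the ligands were tested only because their DHA counts were high.

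SOCS1 had the largest change among the tested members, and the genes most like it over the 6 libraries were sought among 11136 genes with a mean of at least 5 CPM. By the root mean square difference of TMM-scaled log2 CPM centred on each gene's mean, the 3 nearest were ANGPTL4 at 0.17, FAM46B at 0.22 and HMOX1 at 0.22. ANGPTL4, an inhibitor of lipoprotein lipase, had 71.7, 83.3 and 71.2 CPM in DHA libraries against 6.65, 8.41 and 7.91 CPM in control libraries. FAM46B, of a family of poly(A) polymerases, had 42.8, 43.5 and 41.8 CPM in DHA against 3.91, 4.55 and 4.50 CPM in control. HMOX1, heme oxygenase 1, had 297, 369 and 293 CPM in DHA against 37.8, 32.5 and 38.2 CPM in control. In CPM, which is not TMM-scaled, ANGPTL4 and HMOX1 were highest in the DHA library of replicate 2, as SOCS1 was. FAM46B was nearly level across the DHA libraries. All 6 values of each gene come from the same libraries and the same contrast, so this likeness is a description.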

How the data were processed

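The submitters filtered and mapped the reads and tested groups with DESeq2, per the series' design text, and HISAT2 and DESeq2 1.18.1 are named in the submitters' processing notes. No source used here names the counting tool, strand setting, annotation or build. Of the deposited identifiers, 39167 were found in GENCODE 29 (GRCh38), 96.9% of them with the same coordinates. The authors deposited raw read counts, from which CPM was computed. A deposited table named as FPKM holds values not divided by length and was not used. The authors' deposited comparison table holds a log2 fold change, a p-value and its adjusted value for each gene past its limits. Genes that share a name carry identical counts, so 1 row per name was kept, and 32 lines without a gene were left out.

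Genes were kept by filterByExpr, scaled by TMM and tested by the 2-sided quasi-likelihood test of edgeR 4.0.16 in R 4.3.3, with limma 3.58.1 and DESeq2 1.42.0 as alternatives. Alternatives were other size factors, library totals, DESeq2, no filter, 1 CPM in 3 libraries, limma on log2(CPM + 1), a replicate block, a GC and length offset and leaving out each library. Intervals and the floor of 3 counts cover counting error or the spread between these libraries only. Members and lists were chosen with earlier results of these data known. Named genes were all members, up to 4 genes per list with the smallest adjusted p, plus genes called in the rarer direction if there were at most 3. Some genes of the lists are not reported here.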

Additional observations from a re-analysis of the deposited data

How the results depend on the processing

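SOCS1, SOCS2, SOCS3, PIM1 and STAT3 kept direction and call in all 14 alternatives. With the GC and length offset PIM3 was at -0.16 and PIM2 at -0.32, so that 3 members were lower. JAK1 passed at -0.21 with library totals alone and with limma on log2(CPM + 1), each of which gave 2 lower members; those scalings moved the median of all genes to -0.086 and -0.10, beside 0.011 with TMM. With the offset, SOCS4 was at 0.0074, SOCS5 at 0.13 and ELOB at -0.26, and the counts were 1 higher and 1 lower for other SOCS genes, 2 lower for ligase partners, 2 higher for JAK kinases, 2 higher for other inhibitors and 4 higher for receptors. Receptors also had 4 higher with limma. Leaving out each library gave 1 to 2 higher JAK kinases and 1 to 2 higher inhibitors, each 2 without DHA replicate 2. The cause was not tested. STAT5A passed in the 6 alternatives that tested it. With the replicate block 4361 genes were higher and 4546 lower, in place of 4674 and 4757, and SOCS1 was at 3.49; same-numbered libraries had correlations of deviations of 0.020, -0.078 and -0.049, and the block changed no call of a member. Depth limits CISH and STAT5A.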
